A study of Homo sapiens with 17 samples.

Results

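The solute carrier (SLC) genes are the largest group of human membrane transporter genes, and their expression was followed in HEK293T cells, a human embryonic kidney line, after degradation of the Integrator subunit INTS1. Members were the protein-coding genes of the deposited table whose symbol begins with SLC and a number. There were 231 of them among 14538 genes, in 46 families. By the substrates of their families, fixed lists held 41 mitochondrial carriers, 31 cation, proton, chloride and bicarbonate carriers, 27 amino acid carriers, 27 metal ion carriers, 27 nucleoside and nucleotide sugar carriers, 13 organic ion, peptide and drug carriers, 12 sugar carriers, 10 lipid, choline and coenzyme A carriers, 10 monocarboxylate and dicarboxylate carriers, 8 vitamin and cofactor carriers, 7 phosphate carriers and 6 transmitter and osmolyte carriers. A further 4 members bear an SLC symbol without being carriers, such as the scaffold protein SLC9A3R1, and 8 lay outside these lists.

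SLC proteins move amino acids, sugars, ions, nucleotides, vitamins and metals across the plasma membrane and the membranes of organelles, by exchange, by cotransport with ions or by facilitated diffusion. SLC7A5 (LAT1) takes up large neutral amino acids and SLC7A11 (xCT) exchanges glutamate for cystine, and both reach the cell surface bound to the single-pass glycoprotein SLC3A2 (4F2hc). Genes for several amino acid carriers are known targets of ATF4, the transcription factor of the integrated stress response. Integrator cleaves nascent RNA of RNA polymerase II, and INTS1 is a scaffold subunit of it.

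The study sequenced ribosomal RNA-depleted total RNA of 17 stranded libraries in 6 groups. In the INTS1-AID line INTS1 is homozygous for a miniAID tag, through which auxin directs the protein to degradation. Those cells were given 500 µM auxin for 12 h (3 libraries) or left without it in the 12 h series (3), and were given 500 µM auxin for 4 h (3) or left without it in the 4 h series (2). Untreated INTS1-AID cells (3) were set against untreated parental HEK293T cells (3), the line that carries no such tag. No label says that replicates were separate cultures or that the tagged line is 1 clone, so p-values reflect only how these libraries vary, and that variation may be technical. Degradation acts on the protein, no protein values were analysed here, and parental cells given auxin were not analysed here, so an effect of auxin itself and one of INTS1 loss cannot be told apart.

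Values per library were used for the 6 untreated libraries, which held 26952038 to 39321998 reads in genes in INTS1-AID cells and 26294938 to 35413737 in parental cells. For the auxin series the values are the authors' comparisons, so the depth of those libraries is unknown. Of 8 embryonic kidney, adrenal and neural marker genes 7 were in the table, summing to 4882 to 5083 normalized counts in INTS1-AID and 4506 to 4970 in parental libraries, while of 3 fibroblast markers none was in the table. Of 4 blood markers CORO1A was in the table, at 136 to 168 in INTS1-AID and 126 to 142 in parental libraries, and of 2 colon markers CDX2 was, at 934 to 1011 in INTS1-AID and 884 to 1125 in parental libraries. Parental library 3 stood apart from the other libraries. The deviation of each library from the mean of the other libraries of its group was correlated with GC content over 230 SLC genes. Spearman's correlation was 0.755 in parental library 3, against 0.29, 0.02 and -0.21 in INTS1-AID libraries 1, 2 and 3. It was -0.53 and -0.75 in parental libraries 1 and 2, which are not separate values because library 3 enters the mean they were set against. These are descriptions over genes that share a library.

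In untreated cells the SLC genes spanned a wide range of levels. The mean normalized read count over the 6 libraries was under 10 for 1 gene (SLC39A5), at 10 to under 100 for 31, at 100 to under 1000 for 100 and at 1000 or more for 99. The median SLC gene had 775 normalized counts, against 829 for all genes. Per kilobase of transcript, the ADP/ATP carrier SLC25A5 of the inner mitochondrial membrane had the highest level, with 13116 ± 382 normalized counts in INTS1-AID and 11620 ± 439 in parental cells (SD, n = 3 each), although reads of its near-identical copies could have been split or shared. The mitochondrial phosphate carrier SLC25A3 followed with 10033 ± 241 in INTS1-AID and 9777 ± 437 in parental cells. The lactate carrier SLC16A1 (MCT1) stood at 5340 ± 160 in INTS1-AID and 4345 ± 609 in parental cells, and the glutamine carrier SLC1A5 (ASCT2) at 3791 ± 98.1 in INTS1-AID and 3539 ± 190 in parental cells.

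After 12 h of auxin, the authors' deposited table called 65 of the 231 SLC genes higher and 49 lower, by their DESeq2 test at an adjusted p below 0.05. Over all 14485 genes tested there, 44.2% were called, 21.9% higher and 22.3% lower. After 4 h, the authors' deposited table called 62 SLC genes higher and 34 lower, against 38.4% of all genes, 19.2% in each direction. The median log2 change of SLC genes was 0.03 at 12 h and 0.05 at 4 h, and that of all genes was 0.01 at 12 h and 0.00 at 4 h, from the log2 changes of the authors' deposited table. Called changes of 1 log2 unit or more numbered 18 higher and 7 lower at 12 h (10.8% of all genes, 7.52% higher and 3.27% lower), and 12 higher and 0 lower at 4 h (5.53% of all genes, 5.32% higher and 0.207% lower; 0 lower also at an unadjusted p under 0.05), by the authors' deposited table. The sign of the 12 h changes, auxin over no auxin, is not settled by a column of its own and was taken from how they move with the 4 h changes. In bulk RNA, fewer cells that express a gene and less RNA per cell cannot be told apart.

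The amino acid carriers moved in both directions. At 12 h, 8 of 27 were higher (29.6%) and 6 lower (22.2%), against 21.9% and 22.3% of all genes. At 4 h, 9 were higher (33.3%) and 7 lower (25.9%), against 19.2% of all genes in each direction (authors' deposited table). Counts of this list and of those below stand beside these shares of all genes, and no list was tested against them. The 8 that rose at 12 h were SLC1A3, SLC1A5, SLC3A2, SLC7A3, SLC7A5, SLC7A6, SLC7A8 and SLC16A10. SLC7A8 (LAT2), which like SLC7A5 pairs with SLC3A2, changed the most, with log2 changes of 2.17 ± 0.11 at 12 h (DESeq2 adjusted p = 2.89e-91) and 1.45 ± 0.14 at 4 h (1.43e-23) (authors' deposited table). Here and below ± is the standard error that the deposited p-value implies.

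SLC7A5 (ENSG00000103257, chr16:87830023-87869507 of hg38, minus strand) had log2 changes of 1.32 ± 0.11 at 12 h (DESeq2 adjusted p = 1.91e-32) and 0.64 ± 0.05 at 4 h (1.39e-34) (authors' deposited table). Its partner SLC3A2 (ENSG00000168003, chr11:62856102-62888875, plus strand) had 0.95 ± 0.11 at 12 h (adjusted p = 7.21e-16) and 0.35 ± 0.04 at 4 h (7.76e-14) (authors' deposited table). Both subunits of this heterodimer thus rose, and for both the 12 h effect exceeded the 4 h effect. The difference between the times was 0.68 for SLC7A5 (adjusted p = 6.52e-07) and 0.60 for SLC3A2 (adjusted p = 2.7e-05, Wald z test with Benjamini-Hochberg adjustment over 14460 genes). SLC7A11 (ENSG00000151012, chr4:138164097-138242349, minus strand), another partner of SLC3A2, did not pass at either time, with log2 changes of -0.24 at 12 h (95% interval -0.55 to 0.08, adjusted p = 0.236) and -0.06 at 4 h (-0.16 to 0.04, 0.408) (authors' deposited table). Neither interval reaches the rise of SLC7A5 at the same time.

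SLC1A5, which exchanges glutamine for other neutral amino acids, rose with log2 changes of 1.42 ± 0.12 at 12 h and 0.94 ± 0.04 at 4 h (authors' deposited table). The aromatic amino acid carrier SLC16A10 (TAT1) rose by 1.23 ± 0.11 at 12 h and 0.83 ± 0.11 at 4 h, and the glial glutamate carrier SLC1A3 (EAAT1) by 0.93 ± 0.10 at 12 h and 0.43 ± 0.05 at 4 h (authors' deposited table). The cationic amino acid carrier SLC7A3 passed at 12 h (0.77 ± 0.19) and not at 4 h (0.40 ± 0.28) (authors' deposited table). SLC1A4 (ASCT1), a carrier of alanine, serine and cysteine, had the opposite course in time. Its log2 change was 0.05 ± 0.14 at 12 h, which did not pass, and 0.74 ± 0.11 at 4 h, which did (authors' deposited table), and the difference between them was -0.70 (Wald z test, Benjamini-Hochberg adjusted p = 0.000946). SLC38A2 (SNAT2), a system A carrier induced by amino acid shortage, had -0.17 ± 0.13 at 12 h, which did not pass, and 0.16 ± 0.04 at 4 h, which did (authors' deposited table).

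The amino acid carriers that fell included the neuronal and renal glutamate and cysteine carrier SLC1A1 (EAAT3), with log2 changes of -1.77 ± 0.21 at 12 h and -0.72 ± 0.17 at 4 h (authors' deposited table). The arginine carrier SLC7A2 (CAT2) had -0.97 ± 0.11 at 12 h and -0.61 ± 0.05 at 4 h, and the glycine carrier SLC6A9 (GlyT1) -0.89 ± 0.13 and -0.47 ± 0.15 at those times (authors' deposited table). The branched-chain amino acid carrier SLC43A1 (LAT3) and the main arginine carrier SLC7A1 (CAT1) fell less, by 0.60 and 0.29 at 12 h (authors' deposited table). Members of 1 substrate class were thus called in both directions, as genes were over the whole table. Among the cationic carriers, SLC7A3 was higher at 12 h, and SLC7A1 and SLC7A2 were lower.

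**Figure D1:**
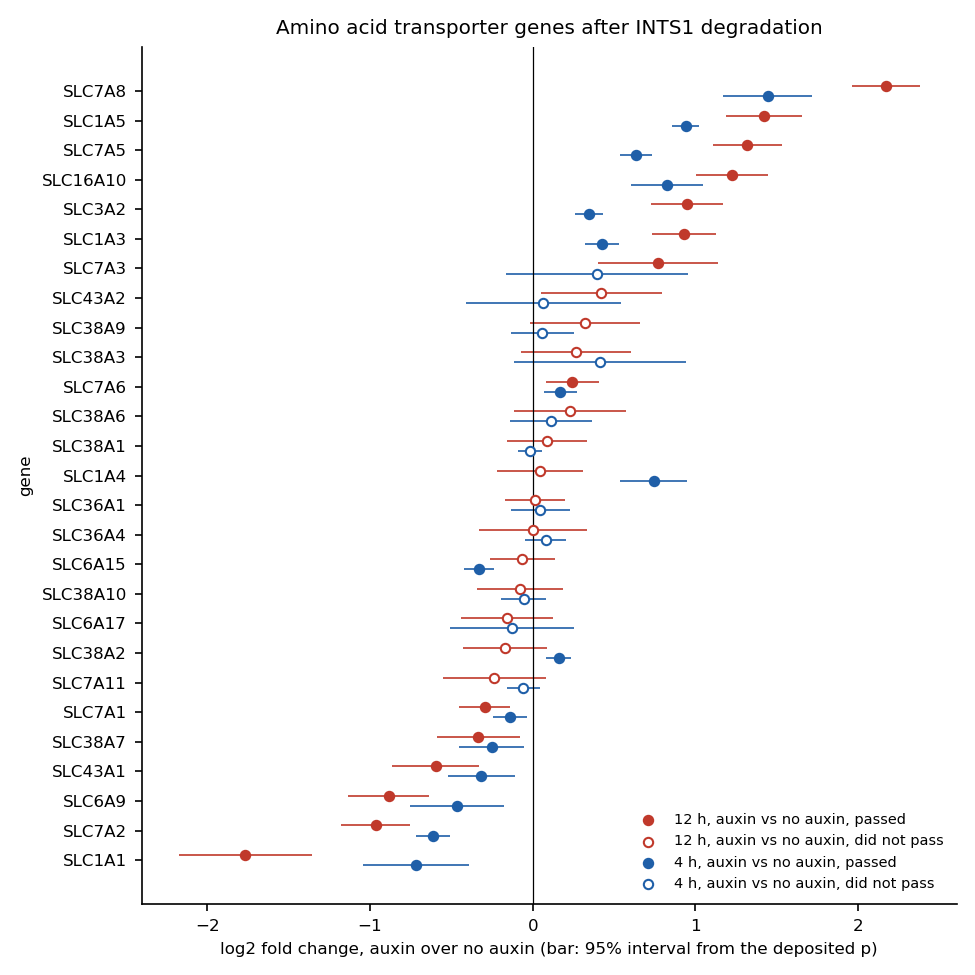
Log2 fold change, auxin over no auxin, of the 27 amino acid carrier genes at 12 h (red) and 4 h (blue), from the authors' deposited table, with 95% intervals that its p-values imply; filled points passed (adjusted p below 0.05). SLC7A8, SLC1A5, SLC7A5 and SLC16A10 lie above 1 at 12 h, SLC1A1 lies at -1.77, and SLC7A11 overlaps 0 at both times.

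Promoter sequence was read for 184 of the 231 genes, from RefSeq on GRCh38.p14, as the 250 bases before each annotated start. Windows are shown for SLC genes picked from those named above as rising, with a single motif printed for each. They hold letters that are known binding sites of factors active in amino acid and stress responses. The C/EBP-ATF response element was searched as TGATGNAA, the AP-1 site as TGACTCA and the E-box as CACGTG, on both strands, and these motifs do not overlap in the windows shown. Capitals mark the match.

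SLC1A5 (chr19:46784893-46784922, minus strand, TGATGNAA, within an annotated UTR of the gene and cut short for that reason): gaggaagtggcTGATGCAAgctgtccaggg

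SLC1A3 (chr5:36596338-36596411, plus strand, TGATGNAA): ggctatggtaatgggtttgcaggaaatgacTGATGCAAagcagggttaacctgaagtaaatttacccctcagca

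SLC3A2 (chr11:62881651-62881679, plus strand, TGACTCA): acgagggtgggTGACTCAgcgtcctcctt

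SLC7A5 (chr16:87869596-87869673, minus strand, CACGTG): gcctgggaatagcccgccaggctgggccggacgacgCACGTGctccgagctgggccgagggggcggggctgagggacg

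The match begins 97 bases before an annotated start in SLC1A5, 220 in SLC1A3 and 37 in SLC3A2, each of which has 3 starts in the table, and 130 bases before the single start of SLC7A5. The start used for SLC3A2 lies inside the span of the gene given above, and the printed bases overlap an annotated exon. TGATGNAA was present in 3.14% of the 35116 promoter windows of all genes, and in 6 of 184 SLC genes (3.26%, against 3.89% of all genes with a window). TGACTCA was in 4.20% of windows and in 17 SLC genes (9.24%, against 5.19% of genes), and CACGTG in 6.34% of windows and in 30 SLC genes (16.3%, against 7.73%). The genes compared with were all 27305 symbols that had a window, not only those of the deposited table. A match in any window of a gene counted, and numbers of starts per gene were not matched. Genes that fell held such letters too, as with CACGTG in SLC43A1 and TGACTCA in SLC4A4. Of the genes shown, SLC1A3 also held TGACTCA and SLC1A5 also held CACGTG. The windows of SLC7A5, SLC3A2 and SLC7A8, which also rose, held no TGATGNAA. Neither the matches nor these shares show binding.

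A fixed list of 18 genes outside the SLC family held ATF4, enzymes of amino acid and one-carbon metabolism, and transcription and stress genes linked to it, such as CEBPB, DDIT3, DDIT4 and SESN2. At 12 h, 9 were higher and 4 lower, and at 4 h likewise 9 were higher and 4 lower (authors' deposited table). The cystathionine lyase gene CTH had 0.87 at 12 h and 0.64 at 4 h, asparagine synthetase ASNS 0.42 and 0.13, and ATF4 itself -0.08 (not passed) and -0.15 at those times, as log2 changes of the authors' deposited table. The glutathione-degrading enzyme gene CHAC1 had 1.07 at 12 h and 0.63 at 4 h (authors' deposited table). Lower at 12 h were CBS (-0.71), SHMT2 (-0.30), PSAT1 (-0.24) and ALDH18A1 (-0.24). Beside ATF4, TRIB3 (-0.25), SHMT2 (-0.17) and ALDH18A1 (-0.12) were lower at 4 h (authors' deposited table). ATF4 and ASNS were already higher in untreated INTS1-AID than in untreated parental cells, by 0.32 and 0.53 (limma adjusted p = 0.0393 and 0.0214).

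Among the ion carriers, 9 of 31 cation, proton, chloride and bicarbonate genes were higher and 3 lower at 12 h, and 10 were higher and 3 lower at 4 h (authors' deposited table). SLC12A2 (NKCC1), which brings sodium, potassium and chloride into cells, rose by 1.36 ± 0.12 at 12 h and 0.95 ± 0.06 at 4 h (authors' deposited table). The bicarbonate importer SLC4A7 rose at both times (0.83 ± 0.12 at 12 h and 0.70 ± 0.07 at 4 h), while its relative SLC4A4 fell at both (-1.46 ± 0.22 at 12 h, at a mean count of 78, and -0.46 ± 0.19 at 4 h) (authors' deposited table). The Golgi sodium/proton exchanger SLC9A7 fell, with -0.84 ± 0.10 at 12 h and -0.27 ± 0.08 at 4 h (authors' deposited table). SLC24A1, a sodium/calcium-potassium exchanger known from rod photoreceptors, had 0.10 ± 0.12 at 12 h, which did not pass, and 0.99 ± 0.13 at 4 h, which did (authors' deposited table).

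Partners and regulators of carriers were read from a fixed list, of which 25 were in the table. At 12 h 7 were higher and 5 lower, and at 4 h 10 were higher and 4 lower (authors' deposited table). SGK1, a kinase that keeps many carriers at the cell surface, had log2 changes of 3.69 ± 0.12 at 12 h and 3.74 ± 0.10 at 4 h (authors' deposited table). STK39 (SPAK), a kinase that activates SLC12A2, fell, with -1.68 ± 0.13 at 12 h and -0.25 ± 0.08 at 4 h (authors' deposited table). The kinase gene OXSR1 of the same list had -0.05 at 12 h, which did not pass, and -0.15 at 4 h, which did (authors' deposited table). The arrestin-like gene TXNIP, whose protein drives internalisation of the glucose carrier SLC2A1, had 0.54 at 12 h and 0.29 at 4 h (authors' deposited table). Its relatives in the list differed. ARRDC3 had 1.64 at 12 h and 2.29 at 4 h, and ARRDC2 1.02 and 0.63 at those times. ARRDC4 had 0.16 at 12 h, which did not pass, and -0.37 at 4 h, which did (authors' deposited table). The scaffold gene SLC9A3R1 (NHERF1), which carries an SLC symbol and anchors SLC9A3 to the cytoskeleton, rose by 1.88 ± 0.12 at 12 h and 1.16 ± 0.06 at 4 h (authors' deposited table). Its paralogue SLC9A3R2 (NHERF2) fell at 12 h by 0.73 and did not pass at 4 h (authors' deposited table).

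Of the 27 metal ion carriers 11 were higher and 5 lower at 12 h, and 10 were higher and 3 lower at 4 h (authors' deposited table). SLC30A1 (ZnT1), which exports zinc and is known to be induced by it, rose with 1.18 at 12 h and 0.84 at 4 h (authors' deposited table). The metallothionein gene MT1X, whose protein binds zinc and copper, had 2.02 ± 0.12 at 12 h and 1.13 ± 0.14 at 4 h, while MT2A did not pass at either time (0.15 and 0.16) (authors' deposited table). The copper carrier SLC31A2 (CTR2) rose by 1.34 ± 0.15 at 12 h and 1.04 ± 0.16 at 4 h, and the magnesium carrier SLC41A1 by 0.52 ± 0.08 and 0.78 ± 0.06 at those times (authors' deposited table). The zinc importer SLC39A10 fell at both times, with -0.44 at 12 h and -0.19 at 4 h (authors' deposited table).

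The SLC30A1 promoter is shown because metal response elements, whose core TGCACNC is the binding site of the zinc sensor MTF1, are known in it. The window from RefSeq (GRCh38.p14) holds 1 core on the reverse strand, in capitals, from 49 to 43 bases before the start, and none of the 3 motifs above.

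SLC30A1 (chr1:211579168-211579246, minus strand, TGCACNC as its reverse complement): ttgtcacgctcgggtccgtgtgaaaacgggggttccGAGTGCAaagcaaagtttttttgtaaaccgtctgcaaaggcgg

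TGCACNC was in 9.87% of the windows of all genes and in 23 of 184 SLC genes (12.5%, against 11.9% of genes with a window). MTF1 itself had a log2 change of 0.31 at 12 h, which passed, and 0.04 at 4 h, which did not (authors' deposited table).

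Among sugar carriers, 6 of 12 were higher and 0 lower at 12 h, and 4 were higher and 1 lower at 4 h (authors' deposited table). SLC2A1 (GLUT1), the basal glucose carrier, had 0.98 ± 0.10 at 12 h and 0.42 ± 0.07 at 4 h (authors' deposited table). SLC45A4, listed with the sugar carriers by family, had 1.46 ± 0.10 at 12 h and 0.99 ± 0.12 at 4 h, and SLC50A1 (SWEET1) 0.63 ± 0.10 and 0.54 ± 0.08 at those times (authors' deposited table). The proton-coupled inositol carrier SLC2A13 fell at 4 h by 0.40 and had 0.04 at 12 h, which did not pass (authors' deposited table).

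Of the 10 monocarboxylate and dicarboxylate carriers 3 were higher and 3 lower at 12 h, and 2 were higher and 0 lower at 4 h (authors' deposited table). SLC16A1 had 0.66 ± 0.09 at 12 h and 0.41 ± 0.03 at 4 h, and SLC16A13 1.20 ± 0.14 and 1.14 ± 0.21 at those times (authors' deposited table). The sulfate carrier SLC13A4 differed between the times, with 1.43 ± 0.13 at 12 h, which passed, and 0.13 ± 0.16 at 4 h, which did not (authors' deposited table). Its relative SLC13A3, a dicarboxylate carrier of the kidney, had -0.75 ± 0.14 at 12 h, which passed, and 0.03 ± 0.16 at 4 h, which did not (authors' deposited table).

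Of the 41 mitochondrial carriers, all of family SLC25, 10 were higher and 9 lower at 12 h, and 11 were higher and 7 lower at 4 h (authors' deposited table). SLC25A30 (KMCP1), a carrier abundant in kidney, rose by 0.94 ± 0.11 at 12 h and 1.03 ± 0.07 at 4 h, and the ATP-magnesium/phosphate carrier SLC25A25 by 0.84 ± 0.12 and 0.77 ± 0.07 at those times (authors' deposited table). SLC25A24, another ATP-magnesium/phosphate carrier, fell by 0.72 at 12 h, and the coenzyme A carrier SLC25A42 fell by 0.86 at 12 h and 0.53 at 4 h (authors' deposited table).

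In the transmitter and osmolyte list 3 of 6 genes were higher and 1 lower at 12 h, and 2 were higher and 0 lower at 4 h (authors' deposited table). The vesicular glutamate carrier SLC17A7 (VGLUT1) of neurons had 2.45 ± 0.15 at 12 h and 1.75 ± 0.36 at 4 h (authors' deposited table), where its mean normalized count was 277 at 12 h and 46 at 4 h. The creatine carrier SLC6A8 rose by 1.20 ± 0.12 at 12 h and 0.79 ± 0.05 at 4 h (authors' deposited table), and its reads may be shared with near-identical copies. Among organic ion, peptide and drug carriers, 3 of 13 were higher and 3 lower at 12 h, and 1 was higher and 0 lower at 4 h (authors' deposited table). That gene was SLC10A3, a member of the sodium/bile acid carrier family, which had the largest rise of all 231 SLC genes in both comparisons: 2.77 ± 0.13 at 12 h (DESeq2 adjusted p = 6.4e-104) and 2.55 ± 0.10 at 4 h (1.7e-134) (authors' deposited table). No other gene of the table overlaps SLC10A3. In the same list SLC22A23 had -1.06 ± 0.11 at 12 h, which passed, and -0.17 ± 0.12 at 4 h, which did not (authors' deposited table).

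Of the 10 lipid, choline and coenzyme A carriers 0 were higher and 4 lower at 12 h, and 1 was higher and 2 lower at 4 h (authors' deposited table). SLC27A2 (FATP2), a fatty acid carrier and acyl-CoA synthetase, had -1.66 ± 0.15 at 12 h and -0.28 ± 0.11 at 4 h (authors' deposited table). The choline carrier-like genes SLC44A1 and SLC44A2 fell at 12 h by 0.35 and 0.76 and did not pass at 4 h (authors' deposited table). Of the 7 phosphate carriers 0 were higher and 3 lower at each time (authors' deposited table), namely SLC37A1 (-1.04), SLC37A4 (-0.42) and SLC17A5 (-0.84) at 12 h. Those lower at 4 h were SLC17A5, SLC20A2 and SLC37A3, so only SLC17A5 was lower at both times. SLC37A1 and SLC37A4 exchange glucose 6-phosphate for phosphate across the endoplasmic reticulum membrane, and SLC17A5, listed by family, exports sialic acid from lysosomes.

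Of the 27 nucleoside and nucleotide sugar carriers 7 were higher and 6 lower at 12 h, and 8 were higher and 4 lower at 4 h (authors' deposited table). SLC29A2 (ENT2), a nucleoside carrier, fell, with -1.13 ± 0.11 at 12 h and -0.67 ± 0.11 at 4 h (authors' deposited table), where AP001107.9 overlaps it on the opposite strand. SLC35A1, which brings CMP-sialic acid into the Golgi, had -0.91 ± 0.18 at 12 h, which passed, and -0.15 ± 0.11 at 4 h, which did not (authors' deposited table). SLC35G1 had 0.39 ± 0.11 at 12 h and 1.22 ± 0.07 at 4 h, the larger rise being the earlier one (authors' deposited table). Among 8 vitamin and cofactor carriers 3 were higher and 2 lower at 12 h, and 2 were higher and 2 lower at 4 h, with the thiamine carrier SLC19A2 at 0.68 and 0.53 and the intestinal folate carrier SLC46A1 at -0.35 and -0.43 at those times (authors' deposited table).

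**Figure D2:**
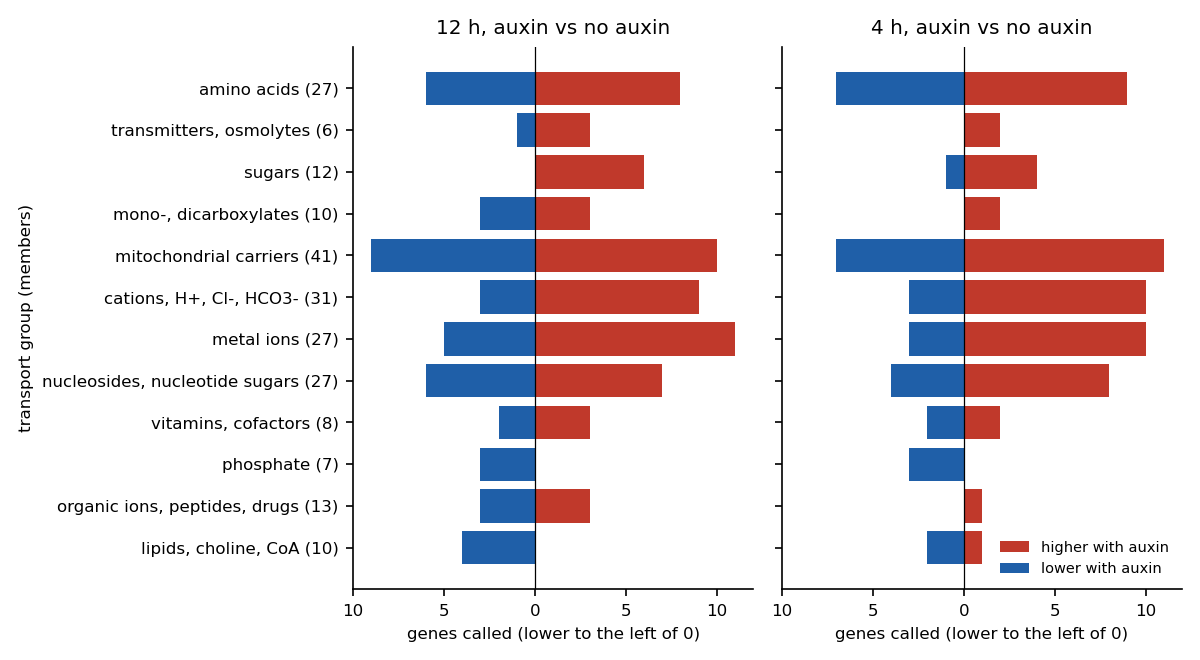
Number of genes called higher (red, right of 0) or lower (blue, left of 0) with auxin in each transport group, at 12 h (left panel) and 4 h (right panel) (authors' deposited table, adjusted p below 0.05); the number of members is in brackets. The sugar list has 6 higher and 0 lower at 12 h, and the phosphate list 0 higher and 3 lower at each time.

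Where a transport group had a count of 0, the unadjusted p-values of the authors' deposited table were counted too. At an unadjusted p under 0.05, 0 sugar carriers were lower at 12 h, 0 phosphate carriers were higher at either time, and 0 lipid, choline and coenzyme A carriers were higher at 12 h. At 4 h, 1 monocarboxylate or dicarboxylate carrier, 1 organic ion, peptide or drug carrier and 0 transmitter or osmolyte carriers were lower (authors' deposited table). Shares of all genes at an unadjusted p were not counted.

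Other transporter genes were counted beside them, with no test of the difference. Of 27 ABC transporter genes 9 were higher (33.3%) and 7 lower (25.9%) at 12 h, and 9 were higher (33.3%) and 4 lower (14.8%) at 4 h (authors' deposited table). Of 33 SLCO, MFSD and ion pump genes 14 were higher (42.4%) and 4 lower (12.1%) at 12 h, and 11 were higher (33.3%) and 1 lower (3.03%) at 4 h (authors' deposited table). The SLC genes had 28.1% higher and 21.2% lower at 12 h and 26.8% higher and 14.7% lower at 4 h, by the same calls of the authors' deposited table.

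The 12 h and 4 h series used separate libraries. Of the 65 SLC genes higher at 12 h, 49 were higher at 4 h too, and of the 49 lower at 12 h, 21 were lower at 4 h too. No SLC gene was called in opposite directions (0 of 231). At 12 h, 16 were called higher and 28 lower with no call at 4 h, and 13 were called in each direction at 4 h with no call at 12 h. Agreement in direction is partly built in, because the sign of the 12 h changes was taken from their correlation with the 4 h changes (Pearson's r 0.85 across genes). These shared calls were not counted over all genes. A call at 1 time and none at the other does not show a difference, so the difference itself was tested. The 12 h effect was above the 4 h effect for 17 SLC genes and below it for 28 (Wald z test, Benjamini-Hochberg adjusted p under 0.05), against 14.9% of all genes, 6.33% above and 8.55% below. The difference was 1 log2 unit or more above for 1 gene and below for 3 (2.15% of all genes, 0.961% above and 1.19% below). Beyond those given above, the 12 h effect exceeded the 4 h effect for SLC7A8 by 0.73 and SLC1A5 by 0.48, as log2 differences. The 12 h effect lay below the 4 h effect for SLC27A2 (-1.38), SLC1A1 (-1.05), SLC24A1 (-0.89), SLC22A23 (-0.89), SLC35G1 (-0.83) and SLC35A1 (-0.75). For SLC10A3 the difference was 0.22 and did not pass (adjusted p = 0.419, Wald z test with Benjamini-Hochberg adjustment).

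**Figure D3:**
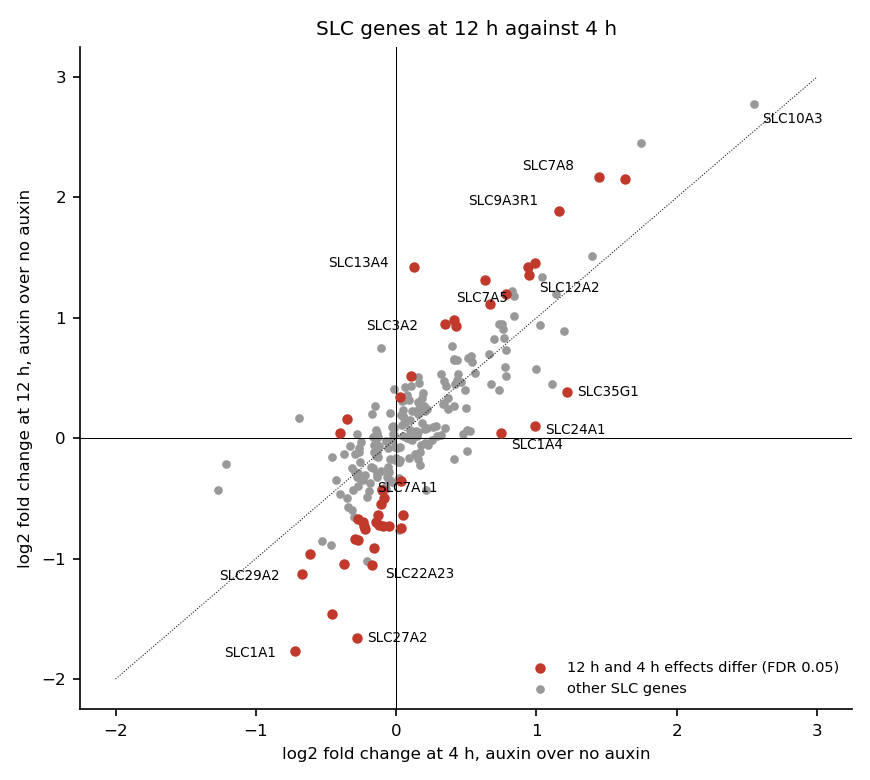
Log2 fold change, auxin over no auxin, of the 231 SLC genes at 12 h (vertical axis) against 4 h (horizontal axis), from the authors' deposited table; the dotted line marks equal changes and red points are the 45 genes whose effects differ between the times. SLC7A5, SLC3A2 and SLC13A4 lie above the line, and SLC27A2, SLC24A1 and SLC35G1 lie below it.

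Newly made RNA was given in the authors' deposited table as a 4 h comparison by TT-seq, which labels and isolates RNA made in a short pulse. For INTS1, 44 of 229 SLC genes were higher and 22 lower in new RNA, against 24.1% of all genes, 13.3% higher and 10.7% lower. Of the SLC genes higher in new RNA 41 were higher in total RNA at 4 h, of those lower 12 were lower, and none of the 229 was called in opposite directions. Called new-RNA changes of 1 log2 unit or more numbered 8 higher and 4 lower (6.08% of all genes, 4.5% higher and 1.59% lower). Among them were SLC10A3 (2.63), SLC7A8 (1.98, at a mean count of 80), SLC12A2 (1.64) and SLC1A5 (1.08) (authors' deposited table). SLC7A5 rose less, by 0.65 in new RNA (adjusted p = 1.5e-05, DESeq2) (authors' deposited table). SLC3A2 had 0.06 in new RNA, which did not pass (adjusted p = 0.738, DESeq2), beside 0.35 in total RNA at 4 h (authors' deposited table). SLC2A1 likewise did not pass in new RNA (0.20) and rose in total RNA at 4 h (0.42), by the authors' deposited table; the difference between the assays was not tested.

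SLC1A1 (-1.58, at a mean count of 43), SLC29A2 (-1.05) and SLC7A2 (-0.86) fell in new RNA (authors' deposited table). SLC4A4 and SLC35D2 were also called lower there, each by 1 log2 unit or more and at a mean count below 100. Of the 22 SLC genes lower in new RNA, 10 had no call in total RNA at 4 h, and 5 of 22 had none at 12 h. Among the 10 were SLC25A13 (citrin), the mitochondrial aspartate/glutamate carrier (-0.55 in new RNA, -0.43 at 12 h), SLC22A23 (-0.48 and -1.06), SLC30A9 (-0.37 and -0.73) and SLC35F1 (-0.93 and -0.64) (authors' deposited table). SLC8A1, SLC10A5 and SLC35D2, also among the 10, had no call at 12 h either. For INTS8, another Integrator subunit, 21 of 224 SLC genes were higher and 8 lower in new RNA (authors' deposited table), against 9.43% of all genes, 6.56% higher and 2.87% lower. Of those, 20 were higher and 7 lower in the INTS1 comparison too. Called changes of 1 log2 unit or more numbered 6 for INTS8, all of them higher (2.24% of all genes, 2.15% higher). Outside the SLC family, ATF4 was called lower in both new-RNA comparisons, with -0.54 for INTS1 and -0.55 for INTS8 (authors' deposited table). The libraries behind the new-RNA columns were not analysed here, and their direction was taken from how INTS1 new RNA moves with the 4 h RNA and INTS8 with INTS1. Agreement in direction among these comparisons is thus partly built in, and their shared calls were not counted over all genes.

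**Figure D4:**
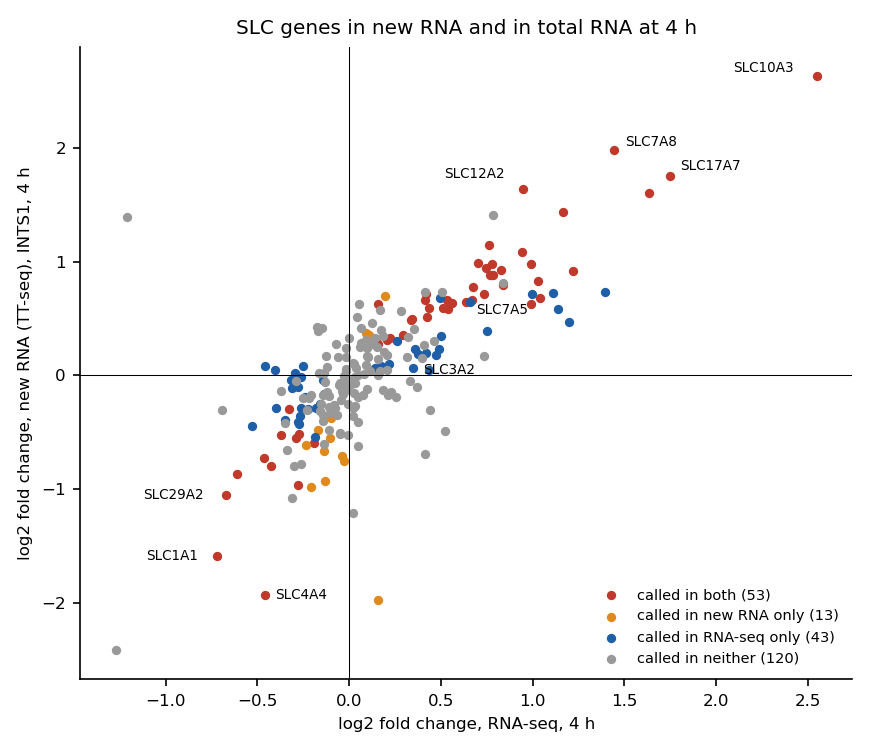
Log2 fold change of 229 SLC genes in new RNA for INTS1 at 4 h (vertical axis) against total RNA at 4 h (horizontal axis), from the authors' deposited table, coloured by the calls in each. SLC10A3, SLC7A8 and SLC12A2 lie at the upper right, SLC1A1 and SLC4A4 at the lower left, and SLC3A2 near 0 in new RNA.

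Calls were also counted by gene length, which had a median of 32.2 kb over the SLC genes. At 12 h, 18 of 48 SLC genes under 10 kb were higher and 7 lower (37.5% and 14.6%), against 35.1% and 12.4% of other protein-coding genes of that length. Of 33 SLC genes over 100 kb, 4 were higher and 9 lower (12.1% and 27.3%), against 11.9% and 39.4% of others, by the calls of the authors' deposited table. At 4 h the SLC genes over 100 kb had 5 higher and 5 lower (15.2% each), against 13.3% higher and 27.6% lower among others (authors' deposited table).

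Untreated INTS1-AID cells were compared with untreated parental cells to see how the tagged line differed before auxin. Of the 230 SLC genes whose mean normalized count reached 10, 6 were higher and 0 lower in INTS1-AID cells (limma with Benjamini-Hochberg FDR 0.05), against 2.22% of all genes tested, 1.85% higher and 0.369% lower. No SLC gene, called or not, reached 1 log2 unit in either direction by limma (0 with an adjusted or an unadjusted p under 0.05, against 0.263% of all genes), and the highest value was 0.99 for SLC8A3, which did not pass. All 6 lie on chromosome 5, which holds 12 SLC genes, and 0 of 218 on other chromosomes were called. At an unadjusted p under 0.05 limma gave 28 higher and 17 lower, of which 19 and 17 lay on other chromosomes. DESeq2 on recovered reads called 11 higher and 2 lower, and edgeR 6 higher and 0 lower. Shares over all genes were not counted at an unadjusted p, or for DESeq2 and edgeR. Among the other genes of chromosome 5, 203 of 580 were higher. The median log2 change was 0.54 for the SLC genes of chromosome 5, 0.02 for those of other chromosomes and 0.52 for the other genes of chromosome 5. In the auxin comparisons the chromosome 5 members had medians of 0.22 at 12 h and 0.05 at 4 h, from the authors' deposited table.

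SLC26A2, a sulfate carrier needed for cartilage matrix, had 2157, 2209 and 2163 normalized counts in INTS1-AID libraries, against 1335, 1282 and 1047 in parental libraries. Every INTS1-AID library lay above every parental one, with a log2 change of 0.84 ± 0.10 (limma adjusted p = 0.0142). SLC1A3 had 3034, 3098 and 3083 in INTS1-AID libraries, against 1884, 1935 and 1512 in parental libraries, again without overlap (log2 change 0.80 ± 0.11, limma adjusted p = 0.0172). SLC12A2 had 2726, 2746 and 2760 in INTS1-AID libraries, against 1935, 2091 and 1656 in parental libraries, also without overlap (0.54 ± 0.10, limma adjusted p = 0.0353). The other called members were the zinc carrier SLC30A5 (0.49), the Golgi protein gene SLC35A4 (0.54) and the mitochondrial carrier SLC25A48 (0.70, at a mean of 125 normalized counts in INTS1-AID and 76.0 in parental cells). SLC1A3, SLC12A2 and SLC26A2 were thus higher in the tagged line before auxin and higher again with auxin at both times.

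SLC7A11, on chromosome 4, had 2292, 2311 and 2618 normalized counts in INTS1-AID libraries, against 1584, 1598 and 1055 in parental libraries. The groups did not overlap, and its log2 change of 0.79 ± 0.16 missed the threshold (limma adjusted p = 0.0567). Without parental library 3 it was 0.59 and passed (adjusted p = 2.06e-06, limma), and it was 0.62 and passed once the GC trend of every library was removed (adjusted p = 0.000556, limma). It also passed with DESeq2 on recovered reads. Of the 16 settings tried beside the main fit, 13 did not call SLC7A11, among them the replicate block and leaving out any other single library. SLC7A5 had 7278, 7199 and 7260 in INTS1-AID libraries, against 7603, 6808 and 8811 in parental libraries, which enclose them. SLC3A2 had 7394, 7254 and 7514 in INTS1-AID libraries, against 6702, 6770 and 8675 in parental libraries, also overlapping. Neither passed, with log2 changes of -0.09 for SLC7A5 and 0.01 for SLC3A2 (limma adjusted p = 0.636 and 0.961), although SLC3A2 passed without parental library 3 (0.13, adjusted p = 0.0185, limma).

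**Figure D5:**
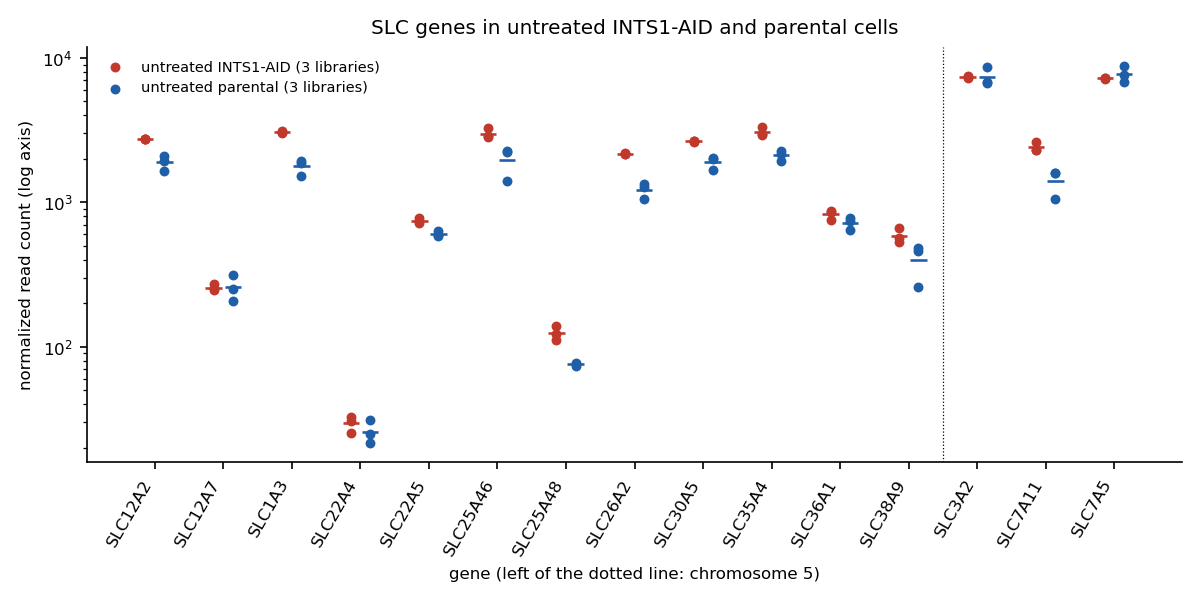
Normalized read counts (log axis) of the 12 SLC genes of chromosome 5 and of SLC3A2, SLC7A11 and SLC7A5 in untreated INTS1-AID (red) and parental (blue) libraries; each point is 1 library (n = 3 per group) and the bar is the mean. The points of SLC26A2, SLC1A3, SLC12A2 and SLC7A11 do not overlap between the lines, while those of SLC7A5 and SLC3A2 do.

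The count of called SLC genes depended on which libraries entered. Without parental library 3, 30 SLC genes were higher and 11 lower (limma, FDR 0.05), against 18.3% of all genes, 10.9% higher and 7.41% lower, and 6 of these 41 were the genes named above. Without INTS1-AID library 1, 2 or 3, or without parental library 1, 0 were called by limma (24 with an unadjusted p under 0.05 in the first case, 24 in the second, 22 in the third and 36 in the fourth), and without parental library 2 there were 3. Shares over all genes were not counted for these settings. With the GC trend removed, 18 were higher and 4 lower, against 9.07% of all genes, 5.56% higher and 3.51% lower. The groups did not overlap for 42 SLC genes that were higher in INTS1-AID cells and 27 that were lower, against 30.7% of all genes, 16% higher and 14.7% lower.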

How the data were processed

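Per the labels' protocols, 2 kits served for the stranded dUTP libraries of ribosomal RNA-depleted total RNA. STAR 2.7.3a, DESeq2 and the builds hg38 and dm6 are listed in the submitters' processing notes. Not given in the sources used here were the kit of each library, the annotation, the counter and the strand setting. Signal values, normalized counts, were made by the authors by dividing reads by 1 size factor per library. Reads were recovered by dividing by each library's step, and 100% of values were whole within 0.001 reads. The log2 values and ratios (fold changes), the p-values, −log10 values and scores (mean counts rounded to whole numbers, and calls) are as the authors deposited them, per the file headers. Columns of per-library values left without a sample numbered 0.

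The table of the untreated lines has headers that name TT-seq, so its counts, and not its comparison columns, were used. Its unit called for limma 3.58.1 (R 4.3.3, trend and robust) on log2(normalized count + 1), which understates changes of low genes, for genes with a mean of at least 10. The auxin comparisons were read from the authors' adjusted p (below 0.05). A deposited log2 expression column matched the denominator's level at 4 h with 3 libraries over 2, the numbers of auxin and control libraries (median error 0.000901 over 681 genes, against 0.145 with 2 over 3 and at least 0.736 for the numerator's level). The matching columns do not settle the other directions. At 12 h the column matched neither level (error 0.253 for the numerator and 0.489 for the denominator, equal numbers assumed), and for INTS8 it matched the numerator (0.00087, against 0.66). Directions there were taken from Pearson's r across genes: 0.85 between 12 h and 4 h (10700 genes), 0.891 between INTS1 new RNA and 4 h RNA (8590), and 0.875 between INTS8 and INTS1 new RNA (8414). The 12 h and 4 h effects were compared by a Wald z test with standard errors implied by the p-values, treated as independent. Both tests were tested on simulated data. The limma simulation held no library with a GC trend, and the Wald simulation took standard errors as known. Those conditions were thus not checked.

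Other settings were a pseudocount of 0.1 or 10, dropping the filter or raising it to 50 or 100, edgeR 4.0.16 (also with TMM) and DESeq2 1.42.0 on reads so recovered, scaling by library totals, the replicate block, leaving out each library, FDR 0.01, and calls of 1 log2 unit or more. Subtracting the GC trend per library (lowess, span 0.3) was chosen after seeing the data. Named genes were, per comparison, up to 10 of the largest rises and 10 of the largest falls (minimum mean count 100), the extremes of each transport group, and SLC7A5, SLC7A11 and SLC3A2. SLC7A8, SLC1A1 and SLC4A4 are given with lower means where stated, as are other genes singled out after their values were seen. Results of 1 gene that the rule names are not reported here. The members, lists and tests were chosen with earlier results of these data known.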

Additional observations from a re-analysis of the deposited data

Results flagged for a closer look

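The genes below had log2 changes at 12 h and 4 h that differed by the Wald z test of the difference (Benjamini-Hochberg adjusted p under 0.05), and are among the 10 largest in each direction among SLC genes whose mean count reached 100. The 12 h effect minus the 4 h effect was 1.30 for SLC13A4, 0.73 for SLC7A8, 0.72 for SLC9A3R1, 0.68 for SLC7A5, 0.60 for SLC3A2, 0.57 for SLC2A1, 0.51 for the phosphate carrier SLC20A2, 0.50 for SLC1A3 and 0.48 for SLC1A5. It was -1.38 for SLC27A2, -1.05 for SLC1A1, -0.89 for SLC24A1, -0.89 for SLC22A23, -0.83 for SLC35G1, -0.78 for SLC13A3, -0.75 for SLC35A1, -0.70 for SLC1A4, -0.69 for the carrier SLC16A9 and -0.68 for the organic cation exporter SLC47A1. The 2 series were separate libraries with 3 against 3 at 12 h and 3 against 2 at 4 h, and differences of preparation between them were not tested.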

How the results depend on the processing

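For the untreated lines, the 6 SLC genes called became 13 with DESeq2, 22 with the GC trend removed, 3 with library totals, 0 with the replicate block, 0 at an FDR of 0.01 and 0 with a log2 change of at least 1. Shares over all genes were not counted for DESeq2, library totals, the replicate block or an FDR of 0.01. With 1 library left out the count ranged between 0 and 41, and was 41 without parental library 3. The median log2 change of SLC genes, 0.02, was -0.039 with library totals and ranged between 0.011 and 0.042 with 1 library left out. The main fit did not pair libraries by replicate number. Deviations of same-numbered libraries had correlations of -0.07, 0.00399 and -0.11 across genes. These cannot exclude pairing, because the groups are small and parental library 3 carries a GC trend. No paired analysis of the auxin series was possible because its values per library were not used here. With a log2 change of at least 1, 25 SLC genes were called at 12 h, 12 at 4 h, 12 in new RNA for INTS1, 6 for INTS8, and 4 for the difference of 12 h and 4 h. At an FDR of 0.01 the difference was called for 27 and new RNA for INTS8 for 19. Counts at a mean of at least 100, and the medians at 12 h and 4 h, moved by less than the limits set (1.5 times for counts, the standard error for medians). None of the 9 genes followed singly in the untreated lines changed direction after a call. Depth of the auxin libraries is unknown, so what it limits there could not be given.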
